A study of Homo sapiens with 20 samples.

Results

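Small nucleolar RNAs and Cajal body RNAs were followed in HCT-116, a long-established line of human colorectal cancer cells, across 5 groups of 4 libraries of total RNA sequenced after ribosomal RNA depletion. The members were the Ensembl gene rows whose symbol begins with SNORD, SNORA or SCARNA and whose raw counts, summed over all 20 libraries, reached at least 200. They numbered 250 of 39918 gene rows: 129 box C/D RNAs (SNORD), 101 box H/ACA RNAs (SNORA) and 20 small Cajal body RNAs, or scaRNAs (SCARNA). A further 89 rows with such a symbol lay below the minimum. Just inside it were SNORA14A with 200 counts, SNORD121A with 208 and SNORA15 with 221, and just outside were SCARNA20 with 197, SCARNA3 with 195 and SNORD111B with 189. The members were chosen by symbol and summed count, with earlier results of these data known. All 250 passed the filter on low counts.

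Box C/D RNAs carry short C and D motifs and guide methylation of ribose in ribosomal RNA with the methyltransferase fibrillarin, while box H/ACA RNAs end in an ACA motif and guide conversion of uridine to pseudouridine with dyskerin. ScaRNAs gather in Cajal bodies, which are nuclear bodies of RNA processing, and guide the same modifications in the spliceosomal snRNAs. Most human snoRNAs are cut out of introns of a host gene transcribed by RNA polymerase II, whereas a few, among them U3, have promoters of their own.

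The study set MG132 and bortezomib, which both inhibit the proteasome, against cells synchronised in G2, and added α-amanitin, an inhibitor of RNA polymerase II, to MG132. Except for the asynchronous cells, all had first spent 16 h in 2 mM thymidine, a block of DNA replication, followed by a 7 h release. The groups were MG132 with α-amanitin (20 µM and 50 µg/ml, 3 h), MG132 (20 µM, 3 h), bortezomib (100 nM, 3 h), G2 cells collected without drug, and untreated asynchronous cells. Comparisons with G2 therefore also contain 3 h of time, since no cells kept for 3 h in vehicle were analysed here, and α-amanitin was always combined with MG132. The labels do not say that the replicates were separate cultures, so a p-value here is set against a spread between samples that may be only technical.

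The sequences shown here are those of the members on which the results turn: the gene copies of U14 (SNORD14), the 2 SNHG1-hosted and 1 RPL4-hosted C/D RNAs that differed most, and SNORA4. They are the gene sequences of GENCODE release 29 on hg38, written 5′ to 3′ on the RNA strand with T for U. Capitals mark TGATGA in the first 25 bases, the letters of a C box, and CTGA in the last 20, the letters of a D box. In SNORA4 they mark ACA in the last 10. SNORD14C, SNORD14D and SNORD14E lie inside HSPA8, which encodes the constitutive chaperone HSC70, at chr11:123059335-123059422, chr11:123058909-123058995 and chr11:123058077-123058161 on the minus strand.
SNORD14C: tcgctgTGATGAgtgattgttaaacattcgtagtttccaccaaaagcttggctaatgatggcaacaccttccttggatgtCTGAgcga
SNORD14D: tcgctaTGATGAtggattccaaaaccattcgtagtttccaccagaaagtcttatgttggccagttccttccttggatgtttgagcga
SNORD14E: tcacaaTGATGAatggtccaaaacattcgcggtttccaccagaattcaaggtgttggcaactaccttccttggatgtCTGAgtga
SNORD14A and SNORD14B lie inside RPS13, a ribosomal protein gene, at chr11:17074654-17074744 and chr11:17075779-17075868 on the minus strand.
SNORD14A: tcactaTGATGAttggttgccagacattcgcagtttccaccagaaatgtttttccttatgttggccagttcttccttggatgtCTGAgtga
SNORD14B: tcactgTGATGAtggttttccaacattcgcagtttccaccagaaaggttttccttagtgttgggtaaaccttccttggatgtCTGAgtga
SNORD27 (chr11:62855012-62855083, minus) and SNORD28 (chr11:62854621-62854695, minus) lie inside SNHG1, a host gene without a known protein product, and SNORD18C (chr15:66501250-66501318, minus) inside RPL4.
SNORD27: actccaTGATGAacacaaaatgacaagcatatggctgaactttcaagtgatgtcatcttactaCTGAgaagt
SNORD28: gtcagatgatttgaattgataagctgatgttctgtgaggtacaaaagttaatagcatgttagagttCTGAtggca
SNORD18C: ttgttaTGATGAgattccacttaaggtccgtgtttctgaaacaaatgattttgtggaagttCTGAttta
SNORA4 (chr3:186787612-186787749, plus) lies inside EIF4A2, which encodes a translation initiation helicase.
SNORA4: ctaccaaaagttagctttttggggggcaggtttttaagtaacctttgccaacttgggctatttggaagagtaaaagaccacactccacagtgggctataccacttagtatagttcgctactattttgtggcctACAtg
Of these RNAs, SNORD14E and SNORD14A lie wholly in an intron of the host, and the others overlap an exon of at least 1 annotated host transcript. Between any pair of the 5 U14 copies, 75.3% to 85.9% of aligned bases were identical, so they can be told apart by their sequence more readily than the U3 copies described next.

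The letters searched for on the RNA strand divided the classes. CTGA stood in the last 20 bases of 127 of 129 C/D members (98.45%), 11 of 100 H/ACA members with a sequence and 8 of 20 scaRNAs. TGATGA stood in the first 25 bases of 74 C/D members (57.36%), 0 H/ACA members and 5 scaRNAs. ACA stood in the last 10 bases of 90 H/ACA members, 13 C/D members and 13 scaRNAs. C/D members were shortest, with a median of 79 bases, against 134 for H/ACA members and 155 for scaRNAs. Their median GC contents were 44.0%, 48.5% and 47.4%.

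Levels were set by a few RNAs. Members took 0.575% of all counts, and between 0.310% and 1.178% in single libraries. C/D RNAs held 65.2% of the member counts, H/ACA RNAs 22.7% and scaRNAs 12.1%. The copies of U3, a C/D RNA needed for early cleavage of the ribosomal RNA precursor, held 54.0% by themselves, and the 2 copies of U17 (SNORA73A and SNORA73B), an H/ACA RNA of the same process, held 12.3%. The median C/D member had 1204 counts over the 20 libraries, the median H/ACA member 2139 and the median scaRNA 4586.5.

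CPM are counts scaled by a library total adjusted with TMM factors, and CPM per kb divides them by sequence length. Per length, the C/D RNAs with the highest levels were SNORD3D at 7365 CPM per kb, SNORD3A at 5170, SNORD3C at 1976 and SNORD17 at 923, as means over all libraries. Among H/ACA RNAs they were SNORA73B at 2098 CPM per kb, SNORA73A at 1575, SNORA74A at 281 and SNORA53 at 276.5. The leading scaRNAs were SCARNA10 at 496 CPM per kb, SCARNA7 at 413, SCARNA5 at 322 and SCARNA2 at 299. Pairs of the 5 U3 copies were identical in 98.2% to 100.0% of their bases, and how the authors' counting divided reads among them is unknown. SNORD3C, for example, had 4942 CPM in G2 replicate 1 and 85.1 to 124 CPM in the other 3 G2 libraries, so U3 is given as a sum.

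A few libraries stood apart in all classes. Asynchronous replicate 1, G2 replicate 1 and MG132 replicates 2 and 4 were high in members. Their RNA polymerase III short RNAs (such as RN7SK and RMRP) and snRNA genes (symbols beginning with RNU or RNVU) were high too. The first 3 of these libraries share an undocumented letter in the sample code with replicate 2 of MG132 with α-amanitin. In addition, counts depended on GC content in asynchronous replicate 3, G2 replicate 2 and MG132 replicates 2 and 4, with slopes of 0.42, 0.29, -0.36 and 0.61 log2 units per 10 percentage points, against -0.21 to 0.17 in the other 16 libraries. Counts of calls are therefore also given without either set of 4 libraries, except for MG132 with α-amanitin against G2. Library totals were 26797395 to 39710457. HSPA6, a strictly inducible chaperone gene used to check the labels, averaged 1.64 CPM in MG132 with α-amanitin, 75.6 in MG132, 7.20 in bortezomib, 0.125 in G2 and 0.0576 in asynchronous cells. Of 8 epithelial marker genes 6 were above 1 CPM in every library, with sums of 3138 to 5865 CPM, and leukocyte and endothelial markers summed to at most 0.857 and 1.67 CPM. Of 5 fibroblast marker genes 1 was above 1 CPM in every library, and they summed to 3.23 to 4.27 CPM in asynchronous cells and 5.55 to 12.7 CPM in the other groups.

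**Figure D1:**
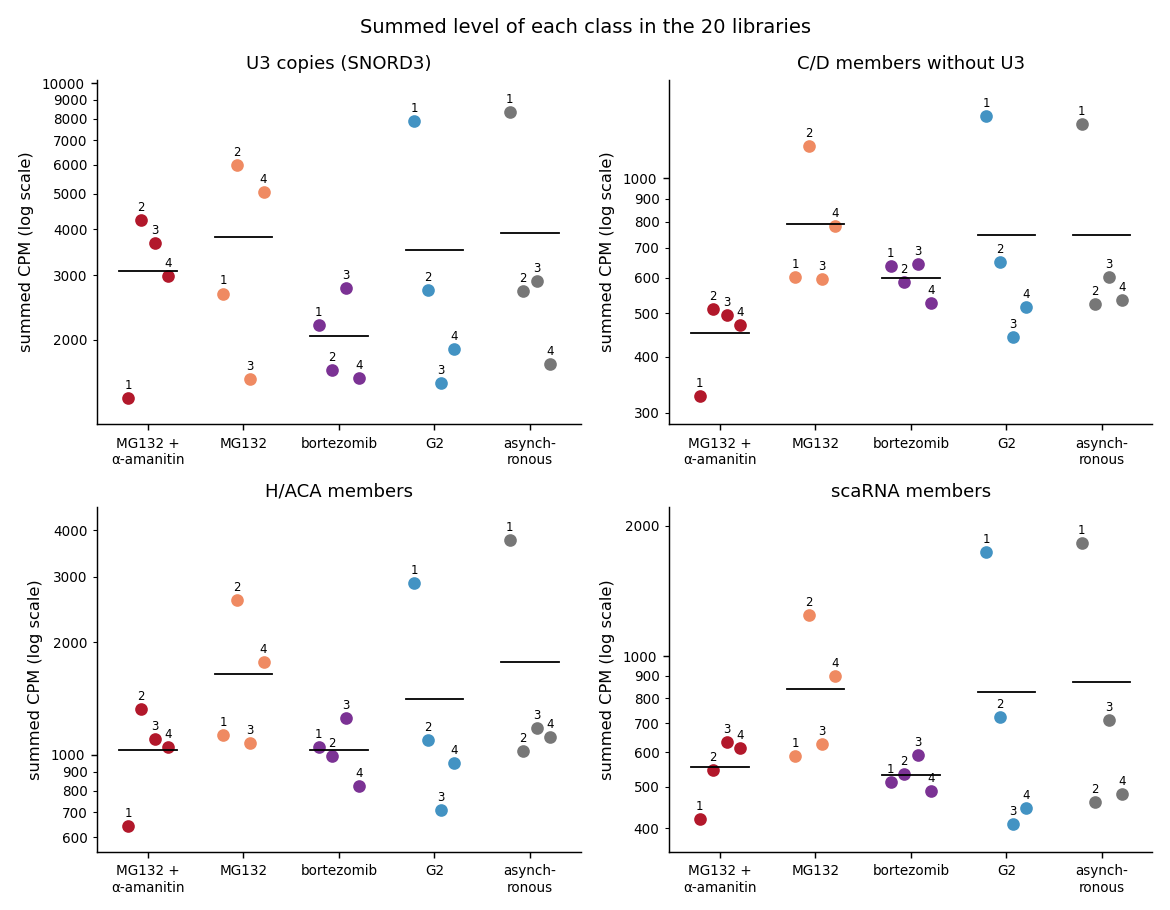
Summed CPM on log axes of the U3 copies, the C/D members without U3, the H/ACA members and the scaRNAs in each of the 20 libraries; points are libraries with their replicate number and bars are group means (n = 4). C/D members without U3 sit between 327 and 512 CPM in MG132 with α-amanitin and between 596 and 1180 CPM in MG132, while the other sums overlap between all groups.

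Summed by class, U3 in MG132 with α-amanitin was at 1389, 4245, 3670 and 2986 CPM, against 2676, 5970, 1567 and 5040 CPM in MG132. It was at 2197, 1652, 2763 and 1578 CPM in bortezomib, 7892, 2727, 1523 and 1893 CPM in G2 and 8340, 2711, 2903 and 1716 CPM in asynchronous cells. Every pair of groups overlapped, and the spread within G2 and asynchronous cells came from replicate 1. The remaining C/D members summed to 327, 512, 495 and 470 CPM in MG132 with α-amanitin, against 603, 1180, 596 and 783 CPM in MG132. Here each α-amanitin library was below each MG132 library. Bortezomib libraries held 526 to 644 CPM of these RNAs, G2 libraries 443 to 1376 and asynchronous libraries 525 to 1322.

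H/ACA members summed to 1030 ± 284 CPM in MG132 with α-amanitin, 1647 ± 714 in MG132, 1030 ± 176 in bortezomib, 1410 ± 995 in G2 and 1770 ± 1330 in asynchronous cells (SD, n = 4). ScaRNAs summed to 554 ± 95.8 CPM in MG132 with α-amanitin, 839 ± 304 in MG132, 531 ± 44.0 in bortezomib, 828 ± 620 in G2 and 870 ± 648 in asynchronous cells (SD, n = 4). In both classes the libraries of all 5 groups overlapped. Without the libraries whose counts depended on GC content, both sums were closer between MG132 with and without α-amanitin. The summed C/D members, U3 included, were then higher with α-amanitin. In bulk RNA, fewer cells holding an RNA and less of it per cell cannot be told apart.

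Adding α-amanitin to MG132 lowered many small RNAs, most often short C/D RNAs. Of 250 members 39 fell and 0 rose (edgeR's quasi-likelihood test, adjusted p under 0.05 by Benjamini-Hochberg over 18959 genes), against 1.51% of all tested genes that fell, 0.68% that rose and 2.19% called either way. At an unadjusted p under 0.05, 127 members were lower and 0 higher, and DESeq2 called 71 lower and 0 higher. The calls were 31 of 129 C/D members (24.0%), 8 of 101 H/ACA members (7.92%) and 0 of 20 scaRNAs, of which 0 had an unadjusted p under 0.05 and 0 were called by DESeq2. Median log2 fold changes were -0.93 for C/D, -0.70 for H/ACA and -0.56 for scaRNA members, against 0.02 for all tested genes, and 244 of 250 members were below 0. The difference between the classes itself was not tested.

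Separation of the libraries showed the same order. In 106 members (42.4%) every α-amanitin library was below every MG132 library, against 4.01% of all tested genes, and in 0 members was every one above, against 4.82%. The 106 were 73 C/D members, 32 H/ACA members and 1 scaRNA. Within single code letters, the median C/D log2 ratio was -0.68, -0.96 and -0.63, the H/ACA one -0.69, -0.79 and -0.43 and the scaRNA one -0.43, -0.72 and -0.22 for letters K, L and O, where K and L hold 1 library of each group. Without the 4 libraries of letter L 23 members were called, and without the 4 GC-skewed ones 15. The GC-skewed ones include MG132 replicates 2 and 4, both high in short RNAs. Leaving out replicate 1 of MG132 with α-amanitin left 15 calls, leaving out its replicate 2 left 25, and leaving out MG132 replicate 2 left 24.

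**Figure D2:**
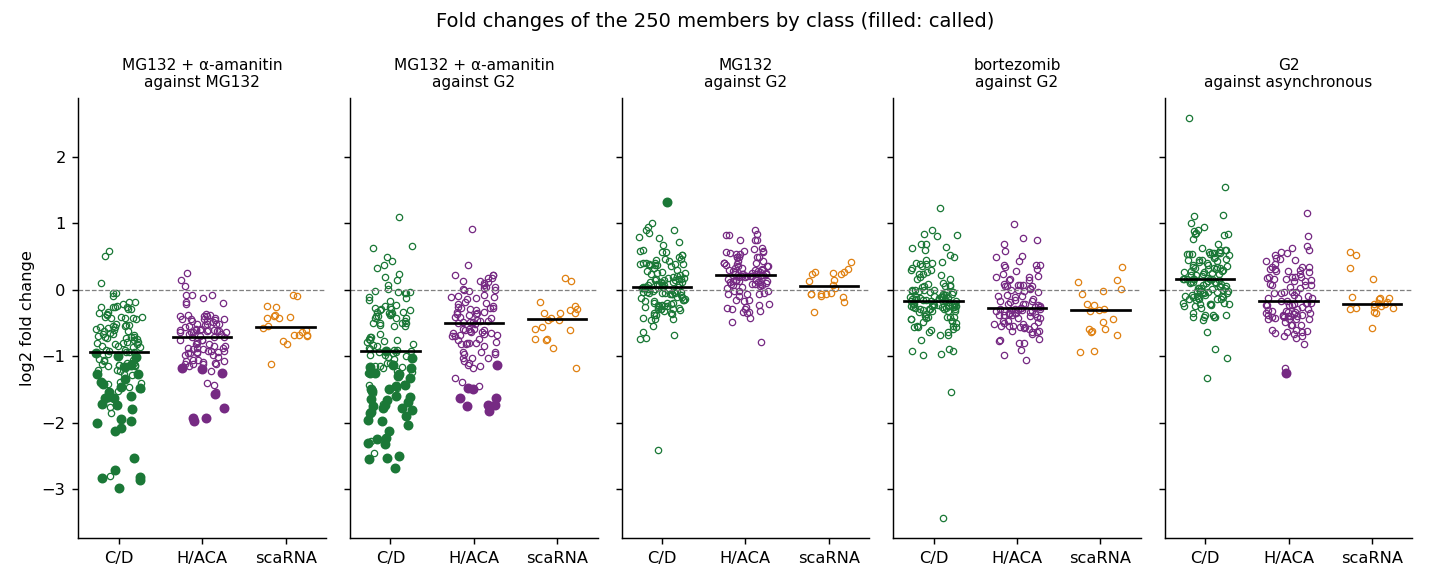
Log2 fold changes of the 250 members by class in 5 comparisons; each point is a member, filled where it was called at an adjusted p under 0.05, and bars are class medians. Filled points lie below 0 in the 2 comparisons with α-amanitin (39 and 49 members), and 1, 0 and 1 members are filled in the other 3.

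The U14 copies inside HSPA8 fell furthest. U14 is a C/D RNA that takes part in cleavage of the ribosomal RNA precursor besides guiding a methylation. SNORD14C was at 0.686, 1.00, 0.619 and 2.27 CPM in MG132 with α-amanitin, against 5.95, 12.9, 7.42 and 10.1 CPM in MG132 (log2 fold change -2.98, SE 0.36, adjusted p = 4.21e-05). SNORD14D was at 0.906, 1.63, 1.70 and 2.21 CPM with α-amanitin, against 7.95, 19.0, 8.60 and 11.4 CPM in MG132 (-2.86, SE 0.32, adjusted p = 1.75e-05). For SNORD14E the values were 1.35, 1.57, 2.35 and 1.80 CPM with α-amanitin, against 8.40, 18.5, 12.6 and 10.6 CPM in MG132 (-2.83, SE 0.38, adjusted p = 0.00013). In all 3 copies the groups were far apart, and each call held under all 30 alternatives tried. Of these, 20 each left out 1 library, and only 8 of those libraries were in the compared groups. The others bear on a call mainly through the shared estimate of spread.

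The copies inside RPS13 differed less. SNORD14A had a log2 fold change of -1.13 (SE 0.34, adjusted p = 0.106) and SNORD14B of -0.73 (SE 0.35, adjusted p = 0.391), and neither was called by edgeR, although DESeq2 called SNORD14A (adjusted p = 0.0292). Together they summed to 4.60 ± 0.562 CPM in MG132 with α-amanitin and 8.49 ± 2.63 CPM in MG132 (SD, n = 4). Copies C, D and E summed to 4.52 ± 1.38 CPM with α-amanitin and 33.4 ± 12.1 CPM in MG132. The ratio of the HSPA8 copies to the RPS13 copies was 0.759 to 1.40 with α-amanitin, 3.59 to 4.15 in MG132, 2.95 to 4.06 in bortezomib, 1.45 to 2.70 in G2 and 1.43 to 2.13 in asynchronous cells. It was thus lowest in every α-amanitin library and higher in each library with a proteasome inhibitor alone than in each G2 or asynchronous library.

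The host gene moved with these copies, but less. HSPA8 averaged 4035 ± 875 CPM in MG132 with α-amanitin and 9578 ± 3527 CPM in MG132 (SD, n = 4). Its log2 fold change was -1.25 (SE 0.25, adjusted p = 0.00853 by edgeR). Per 1000 CPM of HSPA8, copies C, D and E had 0.994 to 1.30 CPM with α-amanitin, 3.29 to 3.69 in MG132, 3.51 to 4.70 in bortezomib, 2.99 to 4.60 in G2 and 2.74 to 4.64 in asynchronous cells. These ratios overlapped among the 4 groups without α-amanitin and lay apart from them in each α-amanitin library. HSPA8 itself was not called without the GC-skewed libraries (-0.88, adjusted p = 0.0836), without letter L (-0.94, adjusted p = 0.105) or without replicate 1 of MG132 with α-amanitin (adjusted p = 0.0532).

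**Figure D3:**
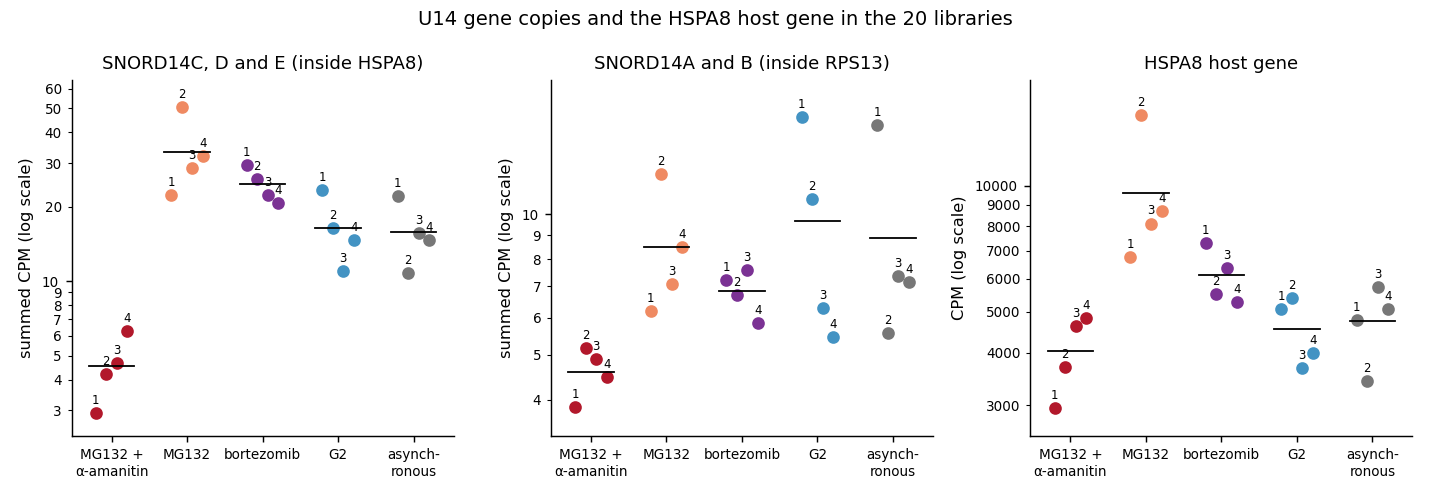
CPM on log axes of the U14 copies inside HSPA8 (sum of 3), those inside RPS13 (sum of 2) and HSPA8 itself in the 20 libraries; points are libraries with replicate numbers and bars are group means (n = 4). The HSPA8 copies span 2.94 to 6.27 CPM in MG132 with α-amanitin and 22.3 to 50.5 CPM in MG132, with no overlap.

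C/D RNAs of SNHG1 and of ribosomal protein genes came next. SNORD27, a guide of ribosomal RNA methylation, was at 0.467, 1.00, 1.14 and 0.774 CPM in MG132 with α-amanitin, against 3.46, 9.60, 4.26 and 4.73 CPM in MG132 (log2 fold change -2.70, SE 0.33, adjusted p = 4.52e-05). Its neighbour SNORD28 was at 0.796, 1.19, 1.14 and 0.967 CPM with α-amanitin, against 3.94, 10.6, 4.47 and 4.80 CPM in MG132 (-2.54, SE 0.36, adjusted p = 0.000256). SNORD26, also of SNHG1, fell by 2.00 on the log2 scale (adjusted p = 0.000116). The 3 RNAs were lower in each α-amanitin library than in each MG132 library. Of the 7 members in SNHG1, 6 fell, by 1.39 to 2.70, and the remaining one, 1 of the 2 rows named SNORD22, had -1.53 (adjusted p = 0.0545). The smallest of these changes, that of SNORD25, was not called under 8 of 30 alternatives (adjusted p = 0.0514 to 0.248). SNHG1 itself fell by 1.42 (SE 0.30, adjusted p = 0.0114), a call lost without MG132 replicate 2 (adjusted p = 0.0505), without replicate 1 or 2 of MG132 with α-amanitin (adjusted p = 0.0658 and 0.0554) and without either set of 4 libraries (adjusted p = 0.103 and 0.0881).

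Of 58 members inside 28 ribosomal protein genes 15 were called lower. This stands beside 24.0% of all C/D members, 7.92% of all H/ACA members and 1.51% of all tested genes. Of the 28 hosts 0 were called, which is near the share over all tested genes. The log2 fold change was below that of the host in 53 of the 58, and 5 members, SNORD4A and SNORD42A of RPL23A among them, were not below it. SNORD18C was at 0.192, 0.282, 0.163 and 0.221 CPM in MG132 with α-amanitin, against 0.855, 3.24, 1.02 and 1.05 CPM in MG132 (log2 fold change -2.81, SE 0.47, adjusted p = 0.00151). SNORD18A (-1.73, adjusted p = 0.00216) and SNORD16 (-1.42, adjusted p = 0.014), in the same gene, fell too, while RPL4 itself had -0.50 (adjusted p = 0.368). SNORD36B was at 0.165, 0.219, 0.163 and 0.166 CPM with α-amanitin, against 0.558, 1.19, 0.706 and 0.608 CPM in MG132 (-2.07, SE 0.33, adjusted p = 0.000984). Its host RPL7A had -0.32 (adjusted p = 0.672). Levels of these RNAs were at most 1.21 CPM in every library with α-amanitin. Those of SNORD18C and SNORD36B were lower still and rest on few reads per library. The SNORD16 call was lost under 5 of 30 alternatives, among them the fits without MG132 replicate 2 (adjusted p = 0.062) and without replicate 1 of MG132 with α-amanitin (adjusted p = 0.0747).

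Members of one host could differ among themselves. SNORD4B, inside RPL23A, was at 0.0549, 0.0939, 0.293 and 0.166 CPM in MG132 with α-amanitin, against 0.520, 0.553, 0.680 and 0.574 CPM in MG132 (log2 fold change -1.94, SE 0.43, adjusted p = 0.0165). Its relative SNORD4A, in the same gene, was at 4.20, 4.07, 4.69 and 4.59 CPM with α-amanitin, against 3.87, 3.60, 5.25 and 6.01 CPM in MG132 (-0.10, SE 0.20, adjusted p = 0.907). Their ratio, 4B over 4A, was 0.0131 to 0.0625 with α-amanitin and 0.0955 to 0.154 in MG132, without overlap. SNORD4B was near the floor with α-amanitin, so its values and this ratio rest on few reads per library. The SNORD4B call was lost without replicate 1 or 2 of MG132 with α-amanitin (adjusted p = 0.0799 and 0.0779), without MG132 replicate 3 (adjusted p = 0.0538) and without either set of 4 libraries (adjusted p = 0.0741 and 0.0692). SNORD4A turned to 0.063 with scaling to total counts and to 0.044 without MG132 replicate 4.

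H/ACA RNAs inside EIF4A2 also differed among themselves, with a narrower separation. SNORA4 was at 1.10, 1.53, 2.28 and 1.49 CPM in MG132 with α-amanitin, against 4.24, 10.3, 5.72 and 4.05 CPM in MG132 (log2 fold change -1.92, SE 0.33, adjusted p = 0.00219), and its call held under all 30 alternatives. SNORA63B (-1.93, adjusted p = 0.00853) and the C/D RNA SNORD2 (-1.46, adjusted p = 0.0124) fell with it, and neither was called without replicate 1 of MG132 with α-amanitin (adjusted p = 0.0512 and 0.0634). SNORA81 (-0.92, adjusted p = 0.436) and SNORA63 (-0.61, adjusted p = 0.719) were not called, and SNORA63 turned to 0.078 without the GC-skewed libraries. The ratio of SNORA4 to SNORA63 was 0.0432 to 0.0935 with α-amanitin and 0.0937 to 0.302 in MG132, so the groups all but touched. In asynchronous cells it was 0.0882 to 0.252, which overlaps the range with α-amanitin. EIF4A2 fell by 1.37 (adjusted p = 0.0415), with 1249 CPM in MG132 replicate 2, and was not called without that library (-0.85, adjusted p = 0.208) or without any of the 4 α-amanitin libraries in turn (adjusted p = 0.075 to 0.178). Other H/ACA RNAs that fell were SNORA29 (-1.98, adjusted p = 0.0263) and SNORA20 (-1.78, adjusted p = 0.0222), both in the chaperonin gene TCP1, which had -0.36 (adjusted p = 0.58). Each of these calls was lost under 7 of 30 alternatives, with adjusted p of 0.0652 to 0.114 for SNORA29 and 0.0566 to 0.22 for SNORA20. Without MG132 replicate 2 SNORA29 and SNORA20 had adjusted p of 0.0964 and 0.0983. Without replicate 1 of MG132 with α-amanitin these were 0.114 and 0.111, and without its replicate 2 they were 0.0994 and 0.0645.

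**Figure D4:**
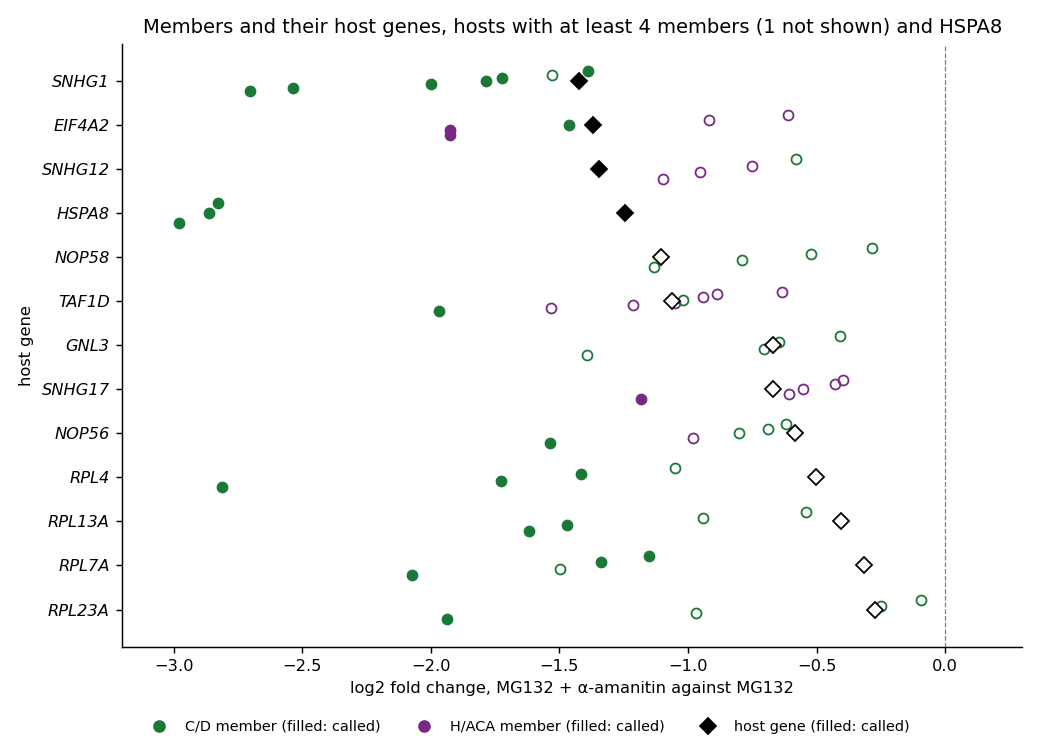
Log2 fold changes in MG132 with α-amanitin against MG132 of members (circles) and their host gene (diamonds), for hosts with at least 4 members, of which 1 is not shown, and for HSPA8; filled symbols were called at an adjusted p under 0.05. In RPL4, RPL7A and RPL23A the members reach -2.81, -2.07 and -1.94 while the hosts are at -0.50, -0.32 and -0.27.

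Over all members with a host, the small RNA was usually the lower. Of 250 members 240 lay inside 136 annotated host genes, 196 in protein-coding genes and 44 in long noncoding RNA genes. The host was taken by position, as the longest such gene on the same strand that contains the member. It can thus be a joined gene such as SENP3-EIF4A1, or a gene around a U3 copy (SNORD3D in AC007952.4). In 189 of the 240 the log2 fold change of the member was below that of its host. Medians were -0.80 for members and -0.36 for hosts, with a Pearson r of 0.42 and a Spearman rho of 0.44 across the 240, which share libraries and, in 53 genes, a host. Of the 39 called members 14 had a called host, in 5 genes. SNHG12 showed the reverse order: the host fell by 1.35 (adjusted p = 0.0242) while 0 of its 4 members were called, with -1.10 to -0.58. The SNHG12 call was lost under 7 of 30 alternatives (adjusted p = 0.0618 to 0.212). Of the 8 members in TAF1D only SNORD5 was called (-1.97, adjusted p = 0.0085), with the host at -1.06 (adjusted p = 0.0693), and the SNORD5 call was lost under 3 of 30 alternatives (adjusted p = 0.0512 to 0.0743).

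Calls were spread unevenly over position and length, without a test of these differences. Of C/D members that overlap an annotated exon of a host transcript, 27 of 69 were called lower, against 4 of 55 lying wholly in introns. For H/ACA members these counts were 6 of 43 and 2 of 53. C/D members in noncoding hosts had 10 of 26 called and those in protein-coding hosts 21 of 98. Among members under 100 bases 30 of 109 fell, among those of at least 100 and under 200 bases 9 of 122, and among those of 200 bases or more 0 of 18. Across the 249 members with a sequence the fold change had a Spearman rho of 0.30 with length and 0.29 with GC content, given as a description. Within C/D, H/ACA and scaRNA members rho was 0.20, 0.14 and -0.16 with length and 0.23, 0.31 and -0.05 with GC content. Length and class go together, so the counts by length partly restate those by class. Counts per gene cannot tell a mature small RNA from an unspliced or retained host transcript that covers it.

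The most abundant RNAs were not called. The U3 copies, whose sums overlapped as given above, had unlike log2 fold changes, and their split is uncertain. SNORD3D averaged 999 ± 678 CPM in MG132 with α-amanitin and 2208 ± 1293 CPM in MG132 (SD, n = 4; -1.14, SE 0.75, adjusted p = 0.591 by edgeR). The lowest was SNORD3B-1, at 3.11 ± 2.29 CPM with α-amanitin and 21.7 ± 22.2 CPM in MG132 (SD, n = 4; -2.80, SE 0.98, adjusted p = 0.183 by edgeR), and the highest SNORD3A. SNORD3A averaged 1720 ± 626 CPM in MG132 with α-amanitin and 1208 ± 1075 CPM in MG132 (SD, n = 4). It had a log2 fold change of 0.51 (SE 0.48, adjusted p = 0.746 by edgeR). The U17 genes SNORA73A (-0.67, SE 0.49, adjusted p = 0.642) and SNORA73B (-0.60, SE 0.47, adjusted p = 0.672) were not called, and SNORA73B was at 0.00 without the GC-skewed libraries. Nor was SCARNA10, a guide for the U5 snRNA (-0.69, SE 0.53, adjusted p = 0.666), or SCARNA7, a guide for the U1 snRNA (-0.60, SE 0.40, adjusted p = 0.598). SNORD118 (U8), which takes part in maturation of the large ribosomal subunit RNAs, was at 0.906, 2.00, 1.99 and 1.49 CPM with α-amanitin, against 2.90, 9.17, 4.08 and 5.51 CPM in MG132. It did not overlap and narrowly missed the threshold (-1.76, SE 0.49, adjusted p = 0.0705), while DESeq2 called it (adjusted p = 0.00883). Since edgeR did not call a change of that size, the missing calls do not show that the levels of these RNAs were alike.

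ScaRNAs, of which 17 of 20 lie wholly in host introns, all had negative log2 fold changes with α-amanitin, from -1.11 for SCARNA11 (SE 0.61, adjusted p = 0.488) to -0.08 for SCARNA9. SCARNA9, which carries guides for the U2 snRNA, was at 5.71, 7.83, 8.15 and 7.90 CPM in MG132 with α-amanitin, against 6.99, 5.34, 6.74 and 12.1 CPM in MG132 (-0.08, SE 0.29, adjusted p = 0.951). SCARNA6, in the same host as SCARNA5, was at 20.0, 32.6, 36.2 and 31.9 CPM with α-amanitin, against 35.2, 70.4, 34.2 and 52.9 CPM in MG132 (-0.67, SE 0.51, adjusted p = 0.657). The groups overlapped in both. In SCARNA16 alone of the 20 did they not, with 4.39 to 7.42 CPM with α-amanitin and 7.74 to 15.9 CPM in MG132 (-0.82, SE 0.47, adjusted p = 0.512), an RNA singled out after its values were seen. Also not called were SCARNA5 (-0.68, adjusted p = 0.633), SCARNA13 (-0.64, adjusted p = 0.645), SCARNA2 (-0.42, adjusted p = 0.775) and SCARNA17 (-0.09, adjusted p = 0.941). The same held for the C/D RNAs SNORD17 (-0.55, adjusted p = 0.722), SNORD94 (-0.42, adjusted p = 0.809) and SNORD13 (-0.38, adjusted p = 0.733), and for TERC, the telomerase RNA with an H/ACA domain (-0.24, adjusted p = 0.858).

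Against G2 cells, MG132 with α-amanitin lowered 49 members and raised 0, beside 2.32% and 1.04% of all tested genes, 3.35% either way. At an unadjusted p under 0.05, 107 members were lower and 1 higher, and DESeq2 called 66 lower and 0 higher. The calls were 40 C/D and 9 H/ACA members and 0 scaRNAs, of which 0 had an unadjusted p under 0.05 and 0 were called by DESeq2. Medians were -0.93, -0.50 and -0.43, with 0.00 over all genes. In 72 members (28.8%) every α-amanitin library was below every G2 library, against 7.24% of all tested genes, and in 0 members every one was above, against 7.76%. Both comparisons use the same α-amanitin libraries, and 32 members were called in both, which is 82.1% of those called against MG132 and 65.3% of those called against G2. Without replicate 1 of MG132 with α-amanitin the count was 25, without G2 replicate 1 it was 27, and without replicate 2 of MG132 with α-amanitin 32. The count without the letter L libraries, or without the GC-skewed ones, is not given for this comparison. Within letter L the class medians were -1.11, -0.94 and -0.81, and within letter O -0.38, -0.07 and 0.25.

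The leading members of that comparison were again C/D RNAs of ribosomal protein genes and SNHG1. SNORD4B had 0.0549, 0.0939, 0.293 and 0.166 CPM in MG132 with α-amanitin, against 1.47, 0.988, 0.767 and 0.715 CPM in G2 (log2 fold change -2.68, SE 0.42, adjusted p = 0.000945). SNORD36B stood at 0.178 ± 0.0273 CPM with α-amanitin and 1.03 ± 0.259 CPM in G2 (SD, n = 4; -2.51, adjusted p = 0.000159). SNORD27 (-2.55, adjusted p = 0.000138), SNORD28 (-2.53, adjusted p = 0.000373) and SNORD18C (-2.32, adjusted p = 0.00723) followed. The groups did not overlap in any of these 5 RNAs. With α-amanitin, SNORD4B, SNORD36B and SNORD18C were near the floor, so their values rest on few reads per library. U14 copies SNORD14C, D and E had -1.66, -1.85 and -1.97 (adjusted p = 0.00946, 0.00224 and 0.00418). HSPA8 was not called here (-0.17, adjusted p = 0.84), and nor was SNHG1 (-0.52, adjusted p = 0.464). SNORD14C was no longer called without replicate 1 of MG132 with α-amanitin (adjusted p = 0.0501) or without letter L (adjusted p = 0.0736).

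MG132 alone raised 1 member against G2 and lowered 0, beside 1.01% and 1.08% of all tested genes, 2.08% either way. Libraries of the groups did not overlap in 5 members higher in MG132 and 2 lower, beside 2.07% and 4.45% of all tested genes. The called member was SNORD14C, at 5.95, 12.9, 7.42 and 10.1 CPM in MG132, against 3.23, 3.98, 3.13 and 4.23 CPM in G2 (log2 fold change 1.32, SE 0.33, adjusted p = 0.0431). The groups did not overlap. SNORD14D (1.01, adjusted p = 0.0961) and SNORD14E (0.86, adjusted p = 0.29) were not called. HSPA8 rose by 1.08 (adjusted p = 0.0267), and per 1000 CPM of it the copies did not separate, as given above. The SNORD14C call was lost under 18 of 30 alternatives. Among these were the fits without any 1 of the 4 G2 libraries or of MG132 replicates 2, 3 and 4 (adjusted p = 0.0533 to 0.138) and without either set of 4 libraries (0.89 and 1.04, adjusted p = 0.348 and 0.383). The HSPA8 call was lost without MG132 replicate 2 or 3 or G2 replicate 1, 3 or 4 (adjusted p = 0.0505 to 0.0982) and without either set of 4 libraries (adjusted p = 0.178 and 0.183). At an unadjusted p under 0.05, 13 members were higher and 4 lower, and DESeq2 called 3 higher (SNORD14C, SNORD14D and SNORD63B) and 0 lower. Class medians were 0.04 for C/D, 0.22 for H/ACA and 0.06 for scaRNA members, with -0.03 over all genes, and all 3 turned negative, as did all genes further, with scaling to mitochondrial mRNAs (-0.23, -0.08 and -0.26, with -0.29 over all genes).

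Bortezomib changed 0 members against G2 at an adjusted p under 0.05 by edgeR, beside 1.15% of all tested genes. In 4 members every bortezomib library was above every G2 library and in 1 below, beside 7.66% and 7.55% of all tested genes. At an unadjusted p under 0.05, 10 members were higher and 7 lower. DESeq2 called 1 higher, the C/D RNA SNORD11 (0.81, adjusted p = 0.0361). SNORD11 was at 3.62, 3.27, 2.89 and 3.63 CPM in bortezomib, against 1.73, 2.52, 1.87 and 1.51 CPM in G2, without overlap (edgeR log2 fold change 0.81, adjusted p = 0.0943), and edgeR called it without the GC-skewed libraries (0.94, adjusted p = 0.0201). U14 copy SNORD14C had 0.83 (SE 0.33, adjusted p = 0.247) and SNORD14D 0.64 (SE 0.30, adjusted p = 0.326). Class medians were -0.16, -0.27 and -0.31 for C/D, H/ACA and scaRNA members, with -0.01 over all genes.

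Between the proteasome inhibitors, 0 members were called for MG132 against bortezomib by edgeR, beside 0.0369% of all tested genes, with 2 members higher and 1 lower at an unadjusted p under 0.05 and 0 called by DESeq2. In 8 members (3.20%) every MG132 library was above every bortezomib library and in 1 below, beside 1.74% and 1.42% of all tested genes. Class medians were 0.18, 0.45 and 0.35. The class sums had log2 ratios of 0.80 for C/D, 0.68 for H/ACA and 0.66 for scaRNA members, which dropped to 0.04, 0.10 and 0.19 without the GC-skewed libraries, that is, without MG132 replicates 2 and 4.

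In G2 against asynchronous cells 1 member was lower and 0 were higher, beside 0.148% and 1.95% of all tested genes, 2.09% either way. Without overlap were 2 members lower in G2 and 1 higher, beside 1.89% and 5.75% of all tested genes. The called member was the H/ACA RNA SNORA31B, inside TPT1, at 7.68, 3.79, 4.60 and 5.95 CPM in G2, against 22.2, 11.3, 7.87 and 10.9 CPM in asynchronous cells (log2 fold change -1.24, SE 0.29, adjusted p = 0.0293). The groups did not overlap, although asynchronous replicate 1, high in all short RNAs, held the top value, and without it the call was lost (-0.87, adjusted p = 0.11). In all it was lost under 10 of 30 alternatives, among them the block by replicate number (adjusted p = 0.0523) and the block by code letter (adjusted p = 0.11). It was also lost without asynchronous replicate 4 (adjusted p = 0.0564) or G2 replicate 2, 3 or 4 (adjusted p = 0.0853, 0.0879 and 0.0722). The host TPT1 had -0.06 (adjusted p = 0.969). At an unadjusted p under 0.05, 12 members were higher and 3 lower, and DESeq2 called 1 lower and 0 higher. Medians were 0.16 for C/D, -0.17 for H/ACA and -0.21 for scaRNA members, with -0.04 over all genes, and with scaling to mitochondrial mRNAs the H/ACA and scaRNA medians turned to 0.04 and 0.10.

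Transcripts of the proteins that bind and mature these RNAs did not pass the test, and the proteins themselves were not measured. Of 4 core box C/D proteins (FBL, NOP56, NOP58, SNU13), 4 core box H/ACA proteins (DKC1, NHP2, NOP10, GAR1), 10 assembly factors and 11 Cajal body and end-processing factors, 0 of 29 genes were called by edgeR for MG132 with α-amanitin against MG132. Over all tested genes 2.19% were called either way, so a count of 0 among 29 is near that share. Among the 29, 0 were higher and 3 lower at an unadjusted p under 0.05, and DESeq2 called 2 lower. Their median log2 fold change was -0.24. TOE1, a nuclease that trims RNA ends in Cajal bodies, came closest (-0.72, adjusted p = 0.0673), and NOP58 had -1.11 (adjusted p = 0.265). In the other 5 comparisons 0 of 29 were called as well, with 0 called by DESeq2 and 1, 2, 4, 4 and 0 at an unadjusted p under 0.05 (G2 against asynchronous, MG132 against G2, bortezomib against G2, MG132 with α-amanitin against G2, MG132 against bortezomib). Of 10 tested RNA polymerase III short RNAs 0 were called for MG132 with α-amanitin against MG132, with 1 lower at an unadjusted p under 0.05, 0 called by DESeq2 and a median of -0.32.

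Genes whose symbol begins with RNU or RNVU were measured beside the scaRNAs, which guide modification of spliceosomal snRNAs. This set was chosen by name alone, so not every gene in it need be spliceosomal or a target of scaRNAs. Of 57 with at least 200 counts, 18 fell with α-amanitin against MG132 and 0 rose, beside 1.51% and 0.68% of all tested genes. DESeq2 called 22 lower and 0 higher, and fits without the GC-skewed or letter L libraries are not given for this set. By edgeR, 16 of the 18 were among the 21 U1 variant genes (RNVU1). All 21 of these variants summed to 226, 419, 450 and 433 CPM with α-amanitin, against 358, 870, 388 and 768 CPM in MG132, and the groups overlapped. The log2 fold changes of the 16 ran from -5.43 for RNVU1-34, at 0.244 ± 0.0824 CPM with α-amanitin and 10.7 ± 5.34 CPM in MG132 (SD, n = 4), to -1.64 for RNVU1-29. The sequences of these variants were not compared, and how reads were divided among them is unknown, so values of single ones are uncertain. Summed over all 57 the groups overlapped, at 590 to 1307 CPM with α-amanitin and 1026 to 2533 CPM in MG132.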

How the data were processed

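Total RNA from 20 HCT-116 samples was sequenced, with a stranded library kit per the labels' protocols. The deposited values are raw counts per gene and per repeat subfamily, made by the authors; FastQC, cutadapt 1.18, STAR and hg38 stand in the submitters' processing notes. The counting tool, annotation release, strand setting and treatment of reads with several matches stand in none of the sources used here (not given). Of 41092 rows, 39918 were genes and 1174 repeats.

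Members, lists and settings were chosen with earlier results of these data known. edgeR 4.0.16 in R 4.3.3 was fitted to all libraries with TMM scaling, 1 mean per group and a low-count filter (robust quasi-likelihood test). P-values were adjusted by the Benjamini-Hochberg method over 18959 genes, with a call below 0.05. The SE of an edgeR log2 fold change is its absolute value divided by the square root of the F statistic. It therefore restates the test and is no separate measure of spread. The biological coefficient of variation was 33.3% with 15 residual degrees of freedom. The procedure was tested on simulated data. CPM values use library totals counted after the low-count filter and multiplied by the TMM factors. Before either step the totals were 26797395 to 39710457.

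Alternatives were scaling by relative log expression, total counts or 13 mitochondrial mRNAs, no filter, DESeq2 1.42.0, fits of the compared groups alone, blocks by replicate number or by code letter, and leaving out single or GC-skewed libraries. Single libraries were left out in turn for every comparison, also those outside the compared groups. Leaving out the 4 letter L libraries was added after seeing the data. Named members were up to 5 called ones per direction and comparison by size of change, the 4 with the highest level per length in each class, and a set list of known RNAs; relatives in the same family or host and other named members were chosen after their values were seen. Positions, hosts and sequences came from GENCODE release 29, in which 249 members have a position. The values of 1 host gene are not reported here.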

Additional observations from a re-analysis of the deposited data

Results flagged for a closer look

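Across the members and class sums looked at, 30 of 200 sets of 4 libraries (15.0%) held 1 library far from the other 3, past the gap that chance exceeds in about 1 in 20 sets. High and low here refer to the 4 libraries of the same group. Asynchronous replicate 1 accounted for 12 of them, MG132 replicate 2 for 7, G2 replicate 1 for 6, replicates 1 and 2 of MG132 with α-amanitin for 2 each, and bortezomib replicate 2 for 1.

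In asynchronous replicate 1 the summed C/D members reached 9661 CPM and the summed H/ACA members 3763 CPM. Among the 4 asynchronous libraries this one held the top values of SNORA73A (994 CPM), SNORA73B (1265), SCARNA10 (385), SNORA63 (103), SNORA81 (31.6), SNORD27 (6.38), SNORD18C (1.52), SNORD38A (1.42) and both SNORD22 rows (10.9 and 7.46). G2 replicate 1 stood apart in SNORA73A (709.8 CPM), SCARNA10 (545), SNORA63 (78.7), SNORA81 (36.4), SNORD3B-1 (45.1) and SNORD5 (2.87) among the 4 G2 libraries. In MG132 replicate 2 the RNAs standing apart from the other 3 MG132 libraries were SNORD18C (3.24 CPM), SNORD16 (4.07), SNORD28 (10.6), SNORD30 (9.21), SNORA63B (8.62), SNORD2 (18.9) and 1 SNORD22 row (15.3). These 3 libraries share a code letter and were also high in other short RNAs.

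The remaining values were low or small. Replicate 1 of MG132 with α-amanitin was lowest in SNORA81 (5.27 CPM) and SNORA20 (0.329), its replicate 2 was highest in SNORD36B (0.219) and SNORD3B-1 (6.51) among the 4 libraries with α-amanitin, and bortezomib replicate 2 was lowest in SNORD18A (0.511).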

How the results depend on the processing

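For MG132 with α-amanitin against MG132, the 39 calls became 71 with DESeq2, 14 with only the groups compared, 15 without the GC-skewed libraries and 23 without letter L. With 1 library of the compared groups left out they were 15 to 42. The highest count, 52, came without G2 replicate 1, which is in neither of these groups. Against G2, the 49 calls became 92 with mitochondrial scaling, and 25 to 60 with 1 library left out. For MG132 against G2, the 1 call became 0 with total or mitochondrial scaling, only the groups compared, or without either set of 4 libraries, 3 with DESeq2, 2 with the code letter block, and 0 to 2 with 1 library left out. Bortezomib against G2 had 1 call with DESeq2 and 1 without the GC-skewed libraries in place of 0. MG132 against bortezomib had 0 calls under every alternative. For G2 against asynchronous cells the 1 call became 3 with total scaling, 2 without the GC-skewed libraries, 0 with mitochondrial scaling, only the groups compared, either block or without letter L, and 0 to 1 with 1 library left out.

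Class sums moved without the GC-skewed libraries. With all libraries, C/D members averaged 3523 CPM in MG132 with α-amanitin and 4604 CPM in MG132. H/ACA members averaged 1030 and 1647 CPM, and scaRNAs 554 and 839 CPM. Without the GC-skewed libraries the log2 ratios of C/D, H/ACA and scaRNA sums between these groups became 0.37, -0.098 and -0.13. The C/D sum thus changed direction. For MG132 against bortezomib the ratios became 0.040, 0.099 and 0.19. Reversed values of single genes were SNORD4A (0.063 with total scaling, and -0.205 to 0.044 with 1 library left out), SNORA63 (0.078) and SNORA73B (0.0034) without the GC-skewed libraries, and HSPA8 against G2 (0.017, code letter block). The cause was not tested. Among single genes, 1597 values kept direction and side of the threshold, 120 lost a call, 18 gained one and 5 reversed.

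Same-numbered libraries correlated at 0.59, 0.06, 0.11 and 0.56 between MG132 with α-amanitin and MG132, over 0.1 in 3 of 4 pairs, and 3 of the 4 pairs also share a code letter. The labels do not say what number or letter stands for, so pairing was not assumed. The replicate block gave 30 calls there, 42 against G2, 1 for MG132 against G2, 0 for bortezomib against G2, 0 for MG132 against bortezomib and 0 for G2 against asynchronous cells. Scaling to mitochondrial mRNAs shifted the median of all genes by -0.41 for MG132 with α-amanitin against G2, by -0.26 for MG132 against G2, by -0.21 for bortezomib against G2 and by -0.15 for MG132 with α-amanitin against MG132. Scaling to total counts shifted it by 0.16 (G2 against asynchronous), -0.12 (MG132 against G2) and 0.17 (MG132 with α-amanitin against MG132). With 4 libraries a group, SNORD118 was not called at -1.76 (SE 0.49), so missing calls do not show equal levels, and U3 copies cannot be separated.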
